A study of Mus musculus with 6 samples.

Results

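The Rab GTPases are the largest branch of the Ras-like GTPases, and they are described here by the transcripts of the protein-coding mouse genes named Rab followed by a number and at most 1 letter, with 1 such gene left out. Of 32285 features counted, 58 were members. Read counts came from type 1 conventional dendritic cells (cDC1s), which present captured antigen to CD8 T cells, sorted by flow cytometry from lymph nodes labelled mLN of C57BL/6 mice. Every mouse had been given 50 µg of house dust mite extract (HDM) through the nose 24 h before sorting. Of the 6 libraries, 3 were wild type (WT), and 3 came from mice carrying the conditional deletion written Vps33BdeltaDC (KO). The sources used here do not give the driver of the deletion, the ages of the mice or whether each library is a separate animal, so p-values measure only the spread between these libraries.

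A Rab protein is a molecular switch that marks a membrane. Bound to GDP it is held in the cytosol by GDI, an exchange factor (GEF) loads it with GTP on its own compartment, and a GTPase-activating protein (GAP) switches it off. While bound to GTP it recruits effectors, among them tethers, motors and sorting adaptors. Rab5 proteins mark early endosomes, Rab11 proteins recycling endosomes and Rab7 late endosomes and lysosomes, and the tethers CORVET and HOPS work at the Rab5 and Rab7 stages. VPS33B, the protein targeted here, is a Sec1/Munc18-family protein that works with VIPAS39, a protein that binds RAB11A. In dendritic cells Rab proteins route captured antigen and MHC molecules.

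The libraries held 11755944 to 18450678 counts. Vps33b was at 16.2, 19.1 and 13.7 CPM in WT replicates 1 to 3 and 4.99, 7.001 and 8.28 CPM in KO replicates 1 to 3 (CPM, counts scaled to library size with TMM factors), lower in every KO library. Values listed across WT and across KO are likewise in the order of replicates 1 to 3. Its log2 fold change was -1.28 ± 0.27 (SE), with an adjusted p of 0.834 by edgeR's quasi-likelihood test. Of 15 cDC1 markers all passed the filter on low counts, with Irf8 at 1413 ± 78.1 CPM for WT against 1537 ± 260.5 CPM for KO, Clec9a at 76.9 ± 13.03 CPM for WT against 59.0 ± 7.80 CPM for KO and Xcr1 at 23.7 ± 18.1 CPM for WT against 8.83 ± 2.87 CPM for KO (SD, n = 3 each here and below). The 15 summed to 3478 to 3777 CPM over WT libraries and 3223 to 3872 CPM over KO libraries. Markers of other cells summed to less: monocytes and macrophages at 203 to 382 CPM over WT libraries and 176 to 702 CPM over KO libraries, B cells at 177 to 324 CPM over WT libraries and 135 to 408 CPM over KO libraries, and T cells at 52.1 to 74.9 CPM over WT libraries and 57.6 to 71.3 CPM over KO libraries. Markers of plasmacytoid dendritic cells summed to 316 to 357 CPM over WT libraries and 348 to 375 CPM over KO libraries. Those of type 2 conventional dendritic cells summed to 156 to 234 CPM over WT libraries and 176 to 298 CPM over KO libraries. Irf8 and Flt3 (807 ± 56.9 CPM for WT against 750 ± 49.5 CPM for KO) made up most of the cDC1 sum. Ighm likewise made up most of the B cell sum, Irf4 and Esam most of the type 2 sum, and Spib and Bst2 most of the plasmacytoid sum. Of 7 plasmacytoid markers tested 3 had a log2 fold change above 0 and 4 below, where 50.6% of all genes tested lay above 0. Siglech, among the 4, was at 7.26 ± 4.68 CPM for WT against 1.58 ± 1.67 CPM for KO. The lists differ in length, so these sums do not measure purity. Less RNA per cell and fewer cells of a type cannot be told apart in such bulk libraries.

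Of the 58 Rab genes, 46 were counted in all 6 libraries, and the same 46 passed the filter and were tested. The 12 others were not tested: Rab3c, Rab17 and Rab25 had no count, and 9 genes had 3 to 22 counts each over all libraries (Rab3b, Rab4a, Rab9b, Rab15, Rab27b, Rab33a, Rab36, Rab40b and Rab44). Rab17 and Rab25 are known from polarised epithelia, where Rab25 is the close relative of Rab11a and Rab11b. A count of 0 allows up to 3 counts in a library, which covers counting error only. The range of levels was wide. Divided by exon length, the highest was Rab8b, which acts between the Golgi and the plasma membrane, at a mean of 168 CPM per kilobase. Rab7 of late endosomes followed at 152 CPM per kilobase, and both together held 23.7% of the summed level of the 58 genes on that scale.

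The next places were close together. Rab5c (82.6 CPM per kilobase), Rab21 (78.9), Rab9 (77.1), Rab32 (76.4) and Rab10 (73.8) changed places between libraries, each lying above the next in only 3 or 4 of 6. Rab7 lay above Rab5c in all 6 libraries, and Rab8b above Rab7 in 5. Rab10 lay above Rab1b (57.5) in all 6, as did Rab1b above Rab8a (48.1). At the low end of the tested genes Rab37, Rab39b, Rab42, Rab6b and Rab3a were each under 1 CPM per kilobase. Exon length was that of all annotated transcripts joined, so the level of a gene that uses only some of its exons can be understated.

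**Figure D1:**
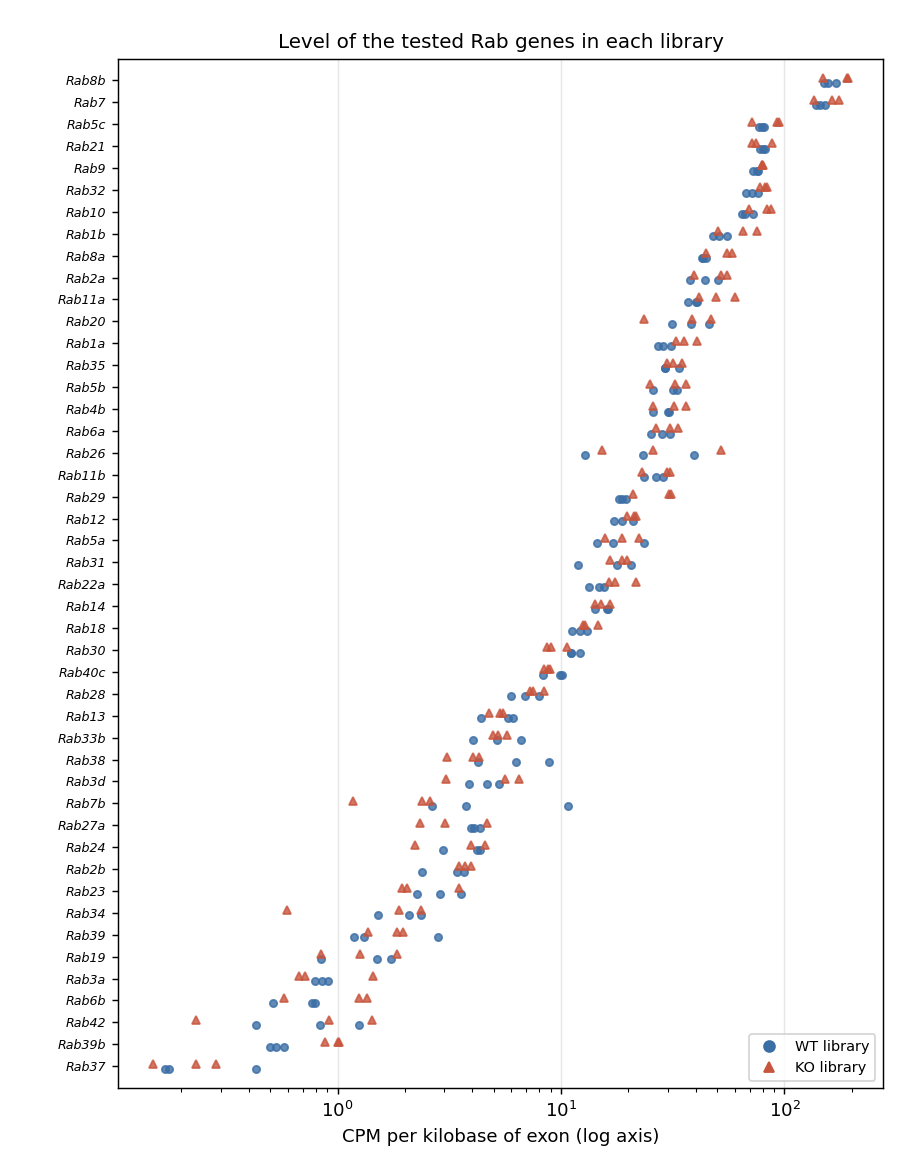
Level of each of the 46 tested Rab genes in every library, as CPM per kilobase of exon on a log axis, with WT libraries as circles and KO libraries as triangles. Rab8b and Rab7 lie highest, and for most genes the symbols of both groups lie in the same range.

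The stretch of DNA before the start site of a detected Rab gene was mostly rich in CG dinucleotides, the mark of a broadly used promoter. In RefSeq windows of 300 bases around the start (build GRCm38.p6), 47 of the 58 genes were matched, with a median of 24 CG dinucleotides against 8 over 27025 genes (for genes with several starts, the window with most CG). The 39 matched genes that were tested had a median of 25, and the 9692 tested genes with a window had 22. The 8 matched genes that were not tested had a median of 10, ranging from 5 in Rab17 to 38 in Rab15, so that a CG-rich window also occurred with almost no counts. Among tested genes the lowest numbers were 6 in Rab42 and 9 in Rab9 and Rab19. Rab9 and Rab32, which had 10, were among the most abundant Rab genes, so that numbers low for a tested gene also occurred beside high counts. The letters CACGTG, read on both strands, were in 4 of the 47 windows (8.51%: Rab5a, Rab20, Rab21 and Rab24), in 7.39% of all windows and in 10.3% of those of tested genes, the same share as among the tested Rab genes. TATAAA, also on both strands, was in 3 of them (6.38%), in 13.7% of all windows and in 6.34% of those of tested genes.

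The 150 bases before a RefSeq start site are shown for 3 of the most abundant genes and for 2 genes with no count, chosen because no annotated exon overlaps them. That of Rab7 is from the other of its RefSeq starts than the one counted above. Those of Rab17 and Rab3c lie inside the GENCODE genes, whose annotated starts are further upstream. They lie on the minus strand, at chr9:66919706-66919855 (Rab8b), chr6:88045271-88045420 (Rab7), chr11:100738216-100738365 (Rab5c), chr1:90967668-90967817 (Rab17) and chr13:110280207-110280356 (Rab3c). Capitals mark each CG, of which there are 15, 9, 10, 3 and 3 in that order.
Rab8b: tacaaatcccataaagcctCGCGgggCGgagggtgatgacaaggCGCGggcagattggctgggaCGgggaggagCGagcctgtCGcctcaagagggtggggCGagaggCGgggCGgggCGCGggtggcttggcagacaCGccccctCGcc
Rab7: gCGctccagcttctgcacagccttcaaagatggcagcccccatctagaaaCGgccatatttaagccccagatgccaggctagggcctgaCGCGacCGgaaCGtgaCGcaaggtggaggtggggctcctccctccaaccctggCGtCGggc
Rab5c: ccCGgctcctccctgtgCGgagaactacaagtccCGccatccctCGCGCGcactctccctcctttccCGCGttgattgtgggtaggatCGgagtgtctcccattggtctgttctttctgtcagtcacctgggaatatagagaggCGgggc
Rab17: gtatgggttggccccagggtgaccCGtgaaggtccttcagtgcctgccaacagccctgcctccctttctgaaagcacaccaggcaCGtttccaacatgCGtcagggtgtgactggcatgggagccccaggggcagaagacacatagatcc
Rab3c: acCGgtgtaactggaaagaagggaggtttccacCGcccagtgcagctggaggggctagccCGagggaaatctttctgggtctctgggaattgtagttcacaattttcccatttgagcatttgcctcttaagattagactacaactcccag

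The comparison of KO with WT asks whether the transcripts of the Rab family differ where Vps33b was targeted, and no Rab gene passed the test. Vps33b itself did not pass either, although its mean in KO was 41.3% of that in WT. Its unadjusted p was 0.000567 and its adjusted p 0.834 by edgeR, and its adjusted p by DESeq2 was 0.0506. By edgeR's quasi-likelihood test 0 of 46 had an adjusted p under 0.05, as for all 12568 genes tested (0%), and the lowest adjusted p of a Rab gene was 0.834. DESeq2, which called 10 of all genes, and limma-voom called 0 Rab genes too. At an unadjusted p under 0.05 there were 4, all higher in KO: Rab29, Rab1a, Rab22a and Rab11a. Some alternatives added genes that were lower, DESeq2, the replicate block and the older quasi-likelihood method both Rab7b and Rab38. The 4 higher genes named first were 8.7% of the 46, where 2.71% of all genes tested were higher. Of all genes tested 3.06% were lower, and 5.77% passed that level in either direction. The groups did not overlap for 10 Rab genes, 8 of them higher (17.4% of the 46, against 5.46% of all genes) and 2 lower (4.35% against 5.19%).

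Most differences were small and pointed up. Of the 46, 31 lay above 0 (67.4%, against 50.6% of all genes tested), and the median log2 fold change was 0.12, against 0.00 over all genes tested. For 42 of the 46 the difference was under 1.5-fold, as it was for 10953 of all 12568 genes tested. For 36 of the 46 the 95% interval lay within 2-fold in both directions (78.3%, against 65.3% of all genes). The median level of the Rab genes was above that of all genes tested. Among genes with a mean of at least 5 CPM the shares were closer, at 92.3% for Rab genes and 85.9% for all genes. KO replicate 2 carried much of the upward shift. Without it the median was 0.02 with 28 of 46 above 0, and 0 Rab genes had an unadjusted p under 0.05, where 2.9% of all genes did. Only 1 had such a p when KO replicate 3 was left out (3.36% of all genes), and 2 when WT replicate 1 was (4.53%), which is near the rate over all genes. Without KO replicate 1 the median was 0.17 and 11 of the 46 had such a p, 9 of them higher and 2 lower, where 12.3% of all genes did. Differences also went with transcript length: in 4 equal classes of all genes by length the median went from 0.10 in the shortest class to -0.07 in the longest, and the shortest class held 16 of the 46 Rab genes, the longest 5. With offsets for GC content and length the median was 0.10 for the Rab genes and 0.05 for all genes.

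**Figure D2:**
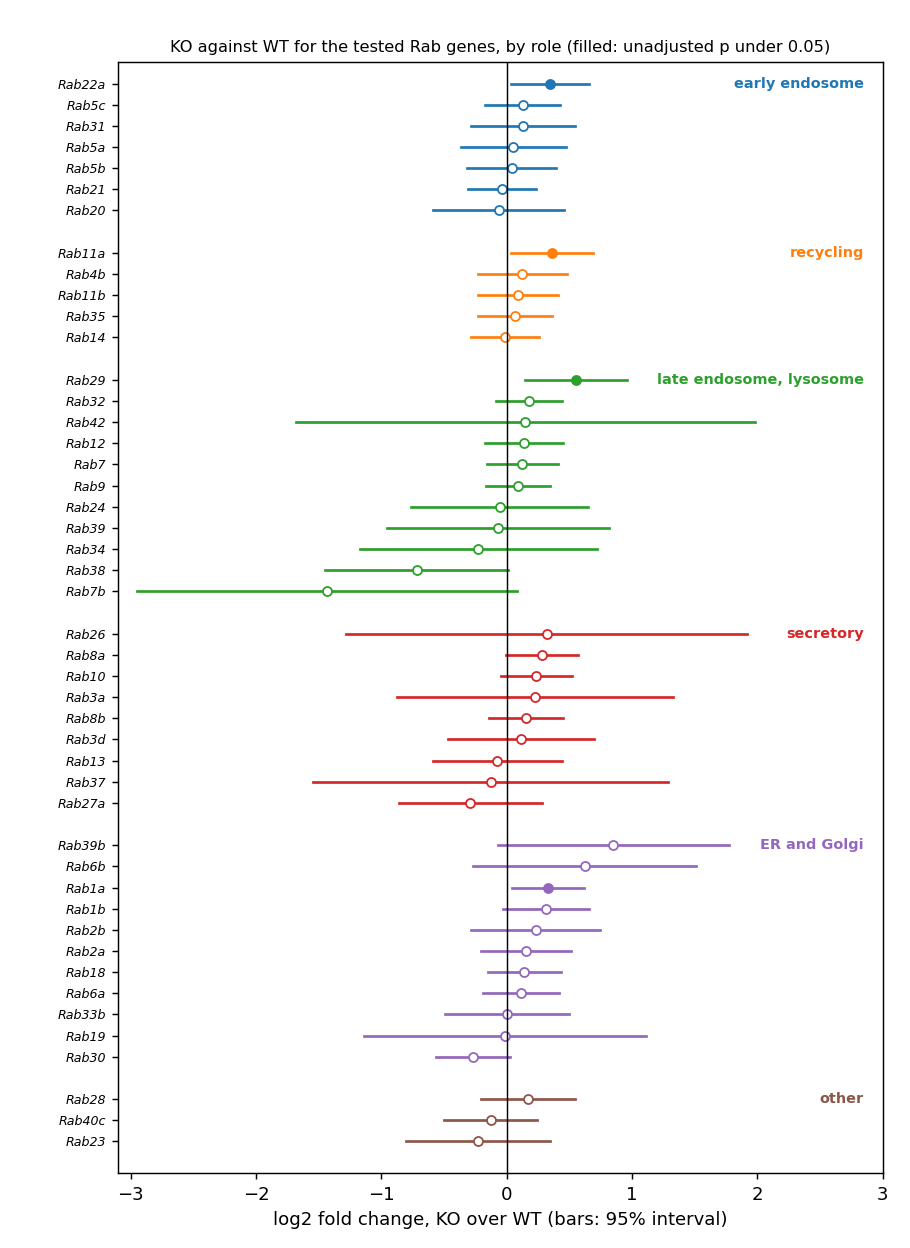
Log2 fold change of KO over WT for the 46 tested Rab genes, grouped by role, with 95% intervals from edgeR as bars. Filled points mark the 4 genes with an unadjusted p under 0.05, all above 0, and the intervals of the other 42 include 0.

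Of the Rab genes of early endosomes, 7 of 7 were tested and 0 passed, with a median log2 fold change of 0.05. Rab22a (ENSMUSG00000027519, chromosome 2, 173659760 to 173707343, build mm10 as for all genes below), which acts in recycling from early endosomes, was at 107, 112 and 96.2 CPM across WT and 118, 156 and 126 CPM across KO. Every KO library lay above every WT library, KO replicate 2 furthest, and the log2 fold change was 0.35 ± 0.14 (SE; 95% interval 0.04 to 0.66), or 0.20 without KO replicate 2. The 3 Rab5 genes, whose products recruit the tethers and lipid kinase of the early endosome, differed little between groups, all 3 overlapping. Rab5c was at 168, 178 and 174 CPM across WT and 157, 203 and 208 CPM across KO (log2 fold change 0.13 ± 0.14). Rab5b was at 133, 109 and 139 CPM across WT and 105, 136 and 152 CPM across KO (0.04 ± 0.16). Rab5a was at 76.5, 123 and 90.2 CPM across WT and 82.6, 118 and 98.9 CPM across KO (0.05 ± 0.19). The last was highest in WT replicate 2 and KO replicate 2. Rab21, which sorts integrins, was at 406, 391 and 412 CPM across WT and 442, 376 and 361 CPM across KO, with KO libraries both above and below WT and the narrowest interval here, -0.31 to 0.23. Rab20, which acts in phagosome maturation, ranged from 32.6 CPM in KO replicate 3 to 65.6 CPM in KO replicate 1, and 25.6% of its exon bases are shared with the opposite-strand gene E230013L22Rik. The strand setting of the counting is not known, so reads of such overlapping pairs cannot be told apart. Rab31 was lowest in WT replicate 2, at 45.5 CPM against 63.0 to 78.2 CPM elsewhere.

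Of the 9 recycling genes 5 were tested, 0 passed, and the median was 0.09. Rab11a (ENSMUSG00000004771, chromosome 9, 64715299 to 64737758), the Rab bound by the VPS33B partner VIPAS39, was at 110.3, 120.3 and 121 CPM across WT and 124, 179 and 147 CPM across KO. KO replicate 1 lay only just above the highest WT library, while KO replicate 2 stood well above it. Its log2 fold change was 0.36 ± 0.15 (95% interval 0.03 to 0.69), and 0.20 without KO replicate 2. Rab11b (ENSMUSG00000077450, chromosome 17, 33742484 to 33760530), its close paralog, was at 144, 163 and 175 CPM across WT and 141, 183 and 189 CPM across KO, and the groups overlapped (0.09 ± 0.15). Rab14, which links the Golgi and endosomes, was at 220.1, 193 and 218 CPM across WT and 225, 192 and 206 CPM across KO (-0.02 ± 0.12), each group spanning nearly the same range. Rab4b, of rapid recycling, was at 50.7, 59.6 and 60.1 CPM across WT and 51.01, 71.5 and 62.8 CPM across KO (0.12 ± 0.16). Rab35, which acts in rapid recycling and actin control, was at 86.6 ± 7.48 CPM for WT against 90.7 ± 7.44 CPM for KO. Rab4a had 22 counts in all, from 2 WT libraries, and Rab15 had 5 from 1 library.

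Of the 13 genes of late endosomes, lysosomes and related organelles 11 were tested and 0 passed, with a median of 0.09. Rab29 (ENSMUSG00000026433, chromosome 1, 131867224 to 131872887), which binds the kinase LRRK2, had the smallest p of the family. It was at 28.6, 27.5 and 26.5 CPM across WT and 30.8, 44.9 and 45.5 CPM across KO. The WT libraries lay close together, KO replicate 1 slightly above them and KO replicates 2 and 3 well above, giving a log2 fold change of 0.55 ± 0.19 (95% interval 0.14 to 0.96, unadjusted p = 0.0127, adjusted p = 0.834 by edgeR). Over the alternatives tried it stayed between 0.45 and 0.71. Rab7 (ENSMUSG00000079477, chromosome 6, 87999106 to 88045270), the Rab of the HOPS stage, was at 362, 398 and 376 CPM across WT and 355, 459 and 424 CPM across KO. The groups overlapped, with a log2 fold change of 0.12 ± 0.13 and an interval of -0.16 to 0.41.

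Rab32, which directs cargo to lysosome-related organelles, was higher in each KO library by a small amount, at 168, 178 and 157 CPM across WT and 191, 196 and 181 CPM across KO (0.18 ± 0.12). Rab9, which returns receptors from late endosomes to the Golgi, was the steadiest, at 133, 132 and 127 CPM across WT and 138, 138 and 141 CPM across KO, apart by group but by a log2 fold change of 0.09 ± 0.12. Rab38, the close relative of Rab32, had the opposite sign, at 9.88, 13.98 and 6.72 CPM across WT and 6.80, 6.36 and 4.85 CPM across KO (-0.72 ± 0.33), or -0.45 without WT replicate 2. Rab12, which acts in receptor degradation, was at 57.5 ± 5.89 CPM for WT against 63.3 ± 3.13 CPM for KO. Rab34, Rab39, Rab24 and Rab42 were each below 10 CPM in all libraries, with intervals wider than 2-fold on at least 1 side for Rab34 and Rab42, and 62.4% of the exon bases of Rab24 are shared with the opposite-strand gene Prelid1.

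Rab7b (ENSMUSG00000052688, chromosome 1, 131688695 to 131715439), which acts between late endosomes and the Golgi, had the largest log2 difference among the 46 tested genes and also their widest spread within groups. It was at 12.2, 49.7 and 17.3 CPM across WT and 5.43, 11.96 and 11.01 CPM across KO. WT replicate 2 alone stood at several times the other WT libraries, and all KO libraries lay below all WT libraries, KO replicate 2 only just. The log2 fold change was -1.44 ± 0.63 (95% interval -2.95 to 0.08), and -0.64 without WT replicate 2. The unadjusted p was 0.0598 by edgeR, but 0.00189 by DESeq2, 0.00104 with the replicate block and 0.0195 without robust estimation, with adjusted p-values of 0.408 to 1.00 over all alternatives. Of the 15 cDC1 markers 7 were likewise highest in WT replicate 2 and 8 in another library. The surface markers Xcr1 and Cd8a were among the 7, and Rab38 was highest there too. Xcr1 was at 13.5, 44.6 and 13.1 CPM across WT and 9.41, 5.72 and 11.4 CPM across KO. Cd8a was at 54.0, 140.3 and 35.4 CPM across WT and 34.1, 30.2 and 47.2 CPM across KO. Of the 15 cDC1 markers 11 lay below 0, with a median of -0.38 on the log2 scale. At an unadjusted p under 0.05, 4 were lower (Itgax, Wdfy4, Xcr1 and Clec9a), and 0 had an adjusted p under 0.05 by edgeR. Over all genes tested 50.6% lay above 0, and 3.06% were lower at that unadjusted p. None of the 15 was at 0, and their sums were 3478, 3777 and 3657 CPM across WT and 3223, 3648 and 3872 CPM across KO. The part of these markers in the Rab7b difference was not tested.

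**Figure D3:**
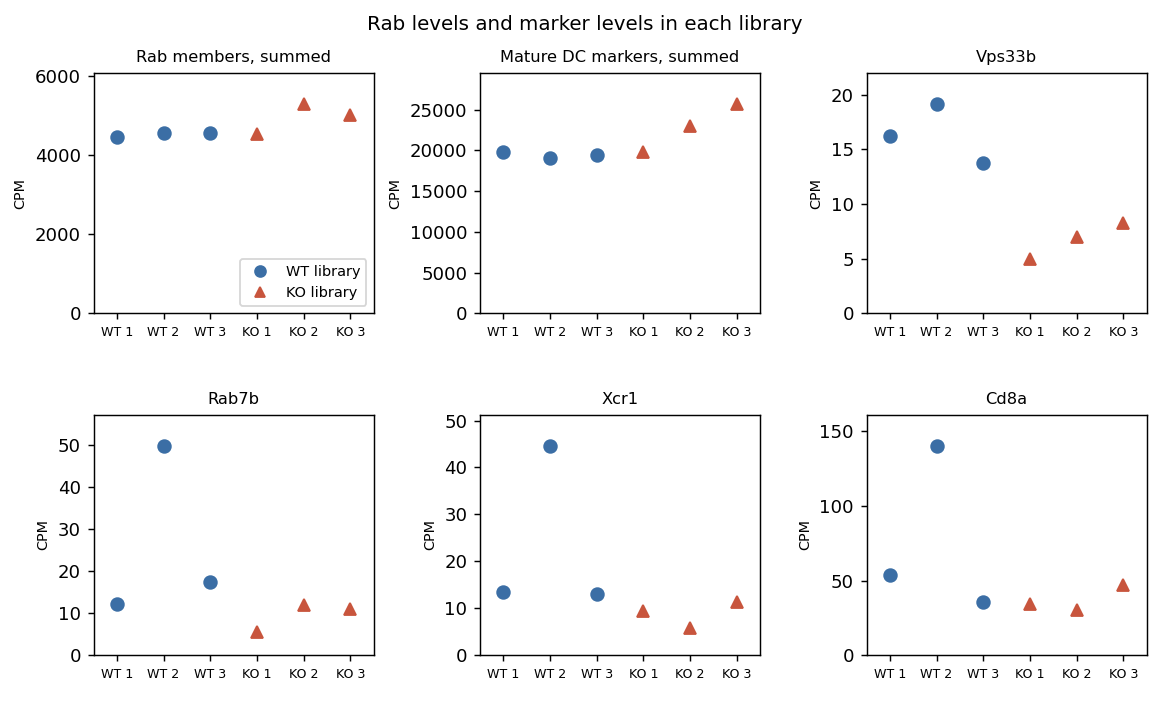
Summed level of the 58 Rab genes, summed level of 10 mature dendritic cell markers, and levels of Vps33b, Rab7b, Xcr1 and Cd8a in each library, in CPM on axes from 0. The summed Rab level is highest in KO replicates 2 and 3, and Rab7b, Xcr1 and Cd8a are each highest in WT replicate 2. Of 15 cDC1 markers 7, Xcr1 and Cd8a among them, are highest in that library, and the others, not drawn, in another.

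Of the 13 secretory genes 9 were tested, 0 passed, and the median was 0.15. The group holds the most abundant Rab gene, Rab8b (ENSMUSG00000036943, chromosome 9, 66843664 to 66919687), at 744, 715 and 801 CPM across WT and 704, 900.3 and 910.4 CPM across KO. KO replicate 1 was the lowest of the 6 libraries and the other KO libraries the highest, so the groups overlapped (0.15 ± 0.13). Rab8a (ENSMUSG00000003037, chromosome 8, 72161200 to 72183904) was at 208, 199 and 202 CPM across WT and 209, 273 and 258 CPM across KO. KO replicate 1 lay with the WT libraries, barely above them, and the log2 fold change was 0.28 ± 0.13 (95% interval -0.01 to 0.57). Rab10, which like Rab8a carries cargo to the plasma membrane, was at 226, 234 and 254 CPM across WT and 245, 305 and 292 CPM across KO (0.24 ± 0.13), again with KO replicate 1 among the WT libraries.

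Rab27a, which docks lysosome-related organelles and is known to bring NADPH oxidase to phagosomes of dendritic cells, was at 15.3, 15.7 and 16.9 CPM across WT and 18.1, 11.7 and 9.07 CPM across KO. It was highest in KO replicate 1 and lowest in KO replicates 2 and 3, the reverse of Rab8b, and its log2 fold change was -0.29 ± 0.26, or -0.59 without KO replicate 1. Rab26, a Rab of secretory granules, had a spread almost as wide as that of Rab7b, at 113, 66.3 and 36.3 CPM across WT and 73.2, 148 and 43.7 CPM across KO. High and low libraries occurred in both groups, its interval ran from -1.28 to 1.92, and 9.36% of its exon bases are shared with the same-strand gene Traf7. Of the Rab3 genes, known for regulated exocytosis, Rab3d was at 19.5, 16.3 and 22.2 CPM across WT and 12.8, 23.5 and 27.3 CPM across KO (0.12 ± 0.27). Rab3a was at 1.76, 2.03 and 1.90 CPM across WT and 1.59, 3.21 and 1.498 CPM across KO (0.22 ± 0.50), whereas Rab3b had 20 counts in all. Rab13, which acts at cell junctions, was at 12.5 ± 2.06 CPM for WT against 11.95 ± 0.918 CPM for KO (-0.07 ± 0.23). Rab37 was barely detected, at 1.38 ± 0.797 CPM for WT against 1.18 ± 0.363 CPM for KO (-0.13 ± 0.65). Rab27b, found in platelets and other granule-bearing cells, had 3 counts, and Rab44, of granulocytes and mast cells, had 19, of which 14 were in KO replicate 3. Markers of monocytes and of granulocytes also summed highest in that library, at 702 and 5.29 CPM, and their part in the Rab44 counts was not tested.

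Of the 12 genes of the endoplasmic reticulum and Golgi 11 were tested and 0 passed, with a median of 0.15. Rab1a (ENSMUSG00000020149, chromosome 11, 20201432 to 20226856), which carries vesicles from the endoplasmic reticulum to the Golgi, was at 103, 117 and 109 CPM across WT and 124, 135 and 155 CPM across KO. The groups were apart, and the log2 fold change was 0.33 ± 0.13 (95% interval 0.04 to 0.62). Its paralog Rab1b was at 108, 115 and 126 CPM across WT and 115, 171 and 148 CPM across KO, with KO replicate 1 among the WT libraries (0.31 ± 0.16). Rab30 (ENSMUSG00000030643, chromosome 7, 92741603 to 92844535), a Golgi Rab, was the other gene besides Rab7b with every KO library below every WT library, at 106, 117 and 107 CPM across WT and 103, 86.9 and 83.7 CPM across KO (-0.27 ± 0.13, 95% interval -0.56 to 0.02).

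Rab39b was apart in the other direction at a very low level, 1.81, 1.69 and 1.96 CPM across WT and 3.40, 3.44 and 3.00 CPM across KO (0.85 ± 0.42), and 18.6% of its exon bases lie opposite the gene Gm15063. Rab2a, which acts between the endoplasmic reticulum and the Golgi, was at 94.3, 108 and 80.3 CPM across WT and 84.1, 111 and 118 CPM across KO (0.15 ± 0.16). Its paralog Rab2b was at 9.94, 14.3 and 15.3 CPM across WT and 15.5, 14.5 and 16.4 CPM across KO (0.23 ± 0.23). Both overlapped between groups. Rab6a, which returns membrane through the Golgi, was at 94.7, 114 and 105 CPM across WT and 115, 125 and 98.9 CPM across KO (0.11 ± 0.14), and 19.0% of its exon bases lie opposite Mrpl48. Rab6b was much lower, at 2.58, 3.99 and 3.86 CPM across WT and 2.89, 6.30 and 6.78 CPM across KO (0.62 ± 0.41), with KO replicates 2 and 3 above all others. Rab33b, a Golgi Rab that binds the autophagy protein ATG16L1, was at 14.2, 18.2 and 23.4 CPM across WT and 17.5, 18.4 and 20.3 CPM across KO and was level between groups (0.00 ± 0.23). Rab18, of lipid droplets and the endoplasmic reticulum, was at 83.0 ± 6.21 CPM for WT against 91.3 ± 7.63 CPM for KO, and Rab19 at 2.14 ± 0.737 CPM for WT against 2.07 ± 0.790 CPM for KO.

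Of the 4 genes outside these groups 3 were tested, with a median of -0.13, and all 3 intervals included 0. Rab40c, an adaptor of ubiquitin ligases, was at 25.8, 30.7 and 31.3 CPM across WT and 26.9, 25.8 and 27.6 CPM across KO (-0.13 ± 0.17). Rab23, known from Hedgehog signalling, was at 24.1 ± 5.39 CPM for WT against 20.7 ± 7.18 CPM for KO. Rab28, known from cilia, was at 31.4 ± 4.47 CPM for WT against 35.1 ± 2.70 CPM for KO.

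**Figure D4:**
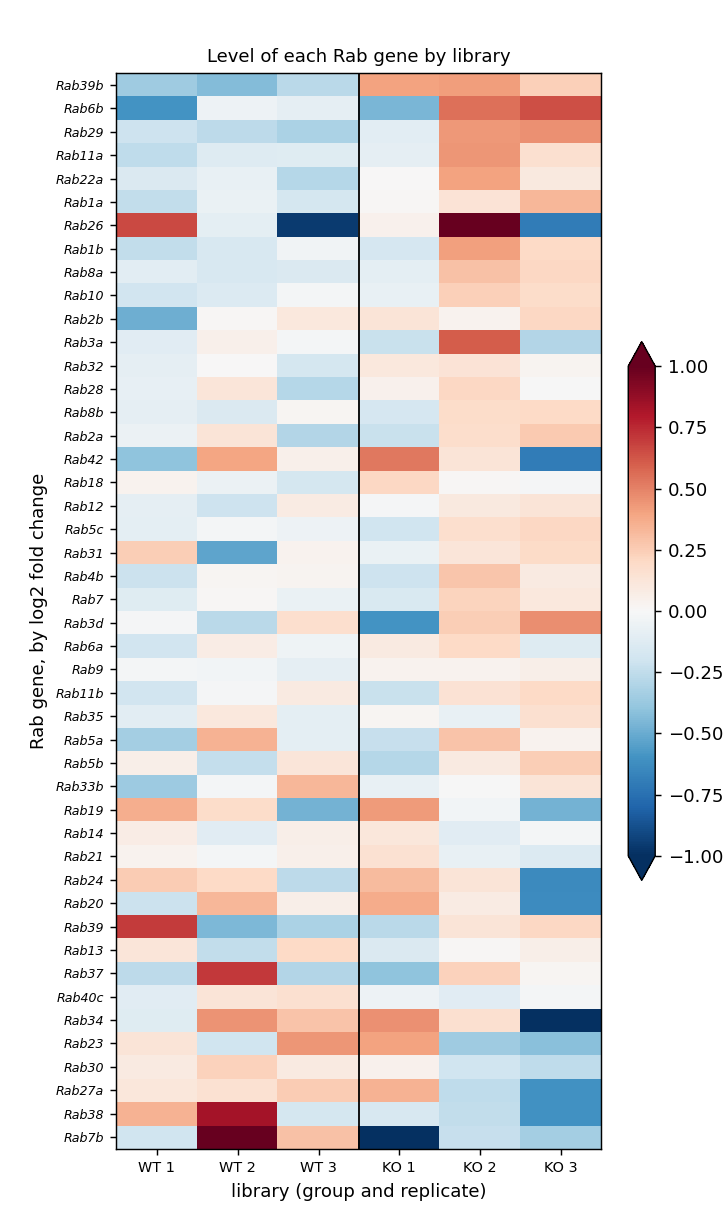
Level of each tested Rab gene in each library, as log2(CPM + 0.5) minus the gene's mean over the 6 libraries, ordered by log2 fold change from the highest at the top. Many genes of the upper part are highest in KO replicates 2 and 3, Rab26 is high or low in libraries of both groups, and Rab7b is highest in WT replicate 2.

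The sum over all 58 genes shows the same uneven KO group. It was 4462, 4565 and 4568 CPM across WT and 4520.2, 5284 and 5013 CPM across KO, so that KO replicate 1 lay among the WT libraries. Vps33b was lowest in that same KO library. The summed level of 10 markers of mature dendritic cells, among them Fscn1, Ccl22 and Ccr7, was likewise highest in KO replicates 2 and 3, at 19762, 19091 and 19467 CPM across WT and 19773, 22954 and 25652 CPM across KO. Of the 10, 9 were highest in KO replicate 2 or 3 and Cd83 in WT replicate 2. All were detected, and the log2 fold change was above 0 for each (median 0.22), where 50.6% of all genes tested lay above 0. Cd80 and Socs2 were higher at an unadjusted p under 0.05, as were 2.71% of all genes tested. By edgeR 0 of the 10 had an adjusted p under 0.05. The part of these markers in the Rab levels was not tested.

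Within sets of paralogs 1 gene usually held most of the transcript, and the balance was much the same in both groups. As a share of the summed CPM per kilobase of its set, Rab2a held 93.2 ± 1.92% in WT and 92.8 ± 1.27% in KO, Rab6a 97.6 ± 0.354% in WT and 96.6 ± 1.51% in KO, and Rab7 96.3 ± 2.56% in WT and 98.7 ± 0.343% in KO. Rab4b, Rab9 and Rab27a held nearly all of theirs. Sets shared more evenly were Rab5, with Rab5c at 61.9 ± 0.637% in WT and 63.3 ± 0.538% in KO, Rab1, with Rab1b at 63.9 ± 1.94% in WT and 63.4 ± 3.995% in KO, and Rab8, with Rab8b at 78.6 ± 0.956% in WT and 77.0 ± 0.607% in KO. Rab3d held 83.1 ± 3.01% in WT and 82.7 ± 6.89% in KO of the Rab3 set.

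The Rab11 set was the one in which the balance differed most visibly among abundant genes. Rab11a held 58.6 to 61.1% in the WT libraries and 61.5 to 66.8% in the KO libraries. The groups were thus apart by a narrow margin, as they also were for Rab5c (61.2 to 62.3% in the WT libraries and 62.8 to 63.9% in the KO libraries) and Rab8a (20.3 to 22.0% in the WT libraries and 22.3 to 23.5% in the KO libraries). At lower levels Rab39b held 15.9 to 30.4% in the WT libraries and 31.0 to 42.3% in the KO libraries of the Rab39 set, and Rab7b 1.86 to 6.59% in the WT libraries and 0.855 to 1.45% in the KO libraries of the Rab7 set. In the other sets of paralogs the shares overlapped between groups. By level, the groups did not overlap for 10.6% of all genes tested. No test was made of the shares. The sources used here do not say how reads matching several paralogs were counted, which makes such shares uncertain.

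**Figure D5:**
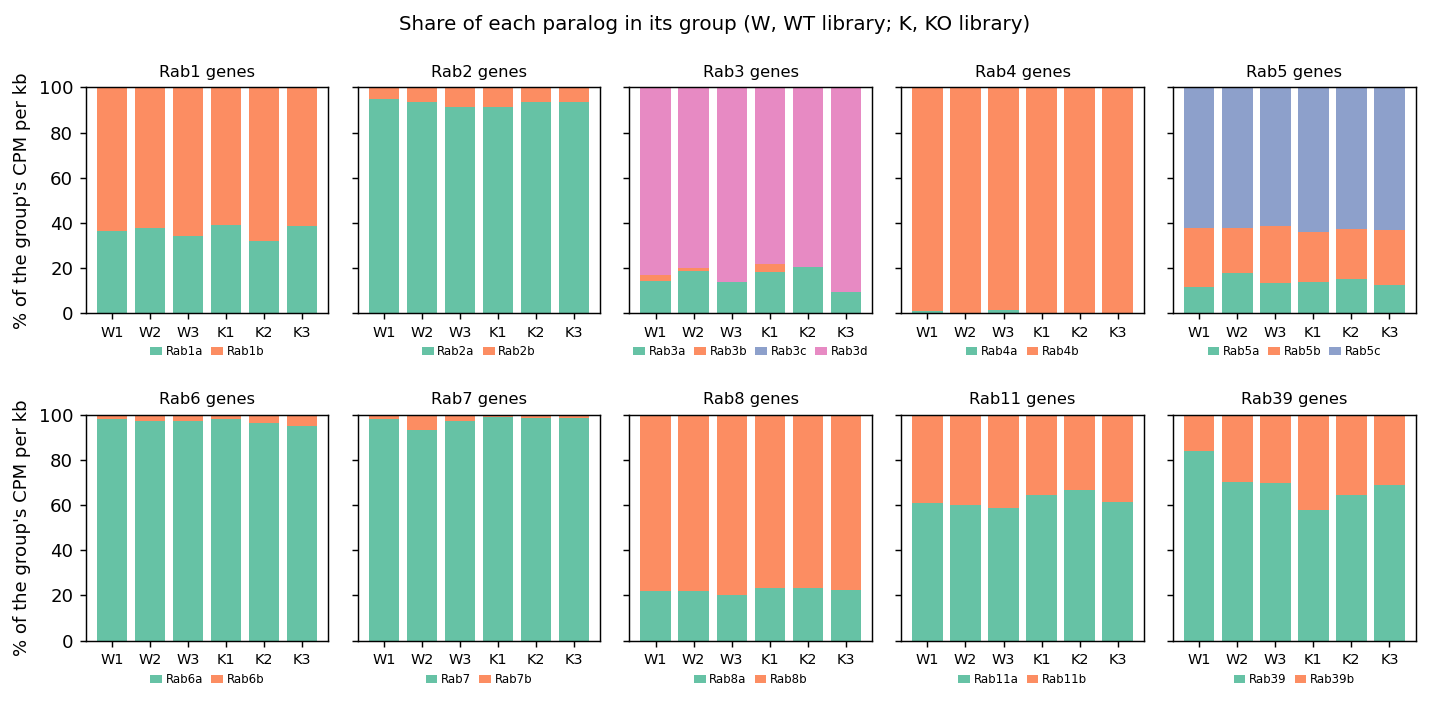
Share of each paralog in the summed CPM per kilobase of its set, in percent, for 10 sets and 6 libraries (W for WT and K for KO, with the replicate number). Single genes fill nearly all of the Rab2, Rab4, Rab6 and Rab7 sets, and Rab11a takes a slightly larger part in the KO libraries.

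A list of 9 Rab genes tied to cross-presentation, the loading of captured antigen onto MHC class I, had log2 fold changes of both signs. Of 7 tested, 3 lay above 0 and 4 below, where 50.6% of all genes tested lay above 0, and the median was -0.02. Rab11a and Rab22a were the members with an unadjusted p under 0.05, both higher. Over all genes tested 2.71% were higher and 3.06% lower at that p. Both genes are among the 4 Rab genes named above, and each had a log2 fold change of 0.20 without KO replicate 2. The others tested were Rab6a (0.11 ± 0.14), Rab14 (-0.02 ± 0.12), Rab27a (-0.29 ± 0.26), Rab34 (-0.23 ± 0.43) and Rab39 (-0.07 ± 0.40). Rab34 was at 3.62, 5.61 and 4.97 CPM across WT and 5.64, 4.49 and 1.41 CPM across KO, lowest in KO replicate 3. Rab39 was at 8.40, 3.51 and 3.91 CPM across WT and 4.05, 5.48 and 5.81 CPM across KO, highest in WT replicate 1. Rab3c had no count in any library, and Rab3b was at 0.549, 0.203 and 0 CPM across WT and 0.506, 0 and 0 CPM across KO.

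Nearly all genes listed for the proteins that switch Rab GTPases had enough counts to be tested, and none of them passed either. The counts of regulators here and below stand beside 50.6% of all genes tested above 0, and 2.71% higher and 3.06% lower at an unadjusted p under 0.05. Of 35 GEF genes, all tested, 24 lay below 0 with a median of -0.09, and Trappc9, a subunit of a TRAPP complex, was lower at an unadjusted p under 0.05 (50.7, 48.4 and 48.7 CPM across WT and 39.8, 31.3 and 40.4 CPM across KO, log2 fold change -0.42 ± 0.16). Dennd2a, a DENN-domain GEF, was next by p at 1.84 ± 0.725 CPM for WT against 0.624 ± 0.543 CPM for KO (-1.55 ± 0.77). Of 37 GAP genes 36 were tested, with 20 above 0 and a median of 0.07, and 2 were lower at that level. One was Tbc1d30 (4.42 ± 1.97 CPM for WT against 1.96 ± 0.184 CPM for KO, -1.23 ± 0.48). The other was Tbc1d4, a GAP for Rab8a, Rab10 and Rab14 and more abundant in CPM than any Rab gene. It was at 1562, 2171 and 2271 CPM across WT and 794, 1575 and 1535 CPM across KO, with KO replicate 1 far below the rest and KO replicates 2 and 3 close to WT replicate 1 (-0.62 ± 0.27).

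Genes of the membrane cycle, which lipidate, escort and extract Rab proteins, had a median of 0.07 over 10 tested, 8 of them above 0. Arl6ip5, a prenylated Rab acceptor family protein, was higher in every KO library, at 38.2, 44.5 and 47.0 CPM across WT and 56.1, 63.2 and 60.3 CPM across KO (0.47 ± 0.15, unadjusted p = 0.00846). Chml, a Rab escort protein, was uneven in both groups, at 0.439, 11.9 and 5.55 CPM across WT and 2.82, 0.292 and 0.264 CPM across KO (-2.34 ± 1.17). Of 48 effector genes 41 were tested, 22 above 0 with a median of 0.01, and 4 had an unadjusted p under 0.05, 3 higher and 1 lower. None had an adjusted p under 0.05 by edgeR. Plin3, which binds Rab9, was at 91.8, 95.8 and 119 CPM across WT and 115, 144 and 152 CPM across KO (0.42 ± 0.15). Micall2, an effector of Rab8 and Rab13, was at 7.63, 9.53 and 7.25 CPM across WT and 6.58, 4.32 and 3.35 CPM across KO (-0.75 ± 0.33). The other two, Osbpl1a (0.66 ± 0.29), which binds Rab7, and Sytl3 (1.66 ± 0.75), which binds Rab27, were named after their values were seen.

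Of 6 Rab-like genes counted, 5 were tested, 4 of them above 0 with a median of 0.14, and 1 was higher at an unadjusted p under 0.05. This was Ift22, a Rab-like protein of intraflagellar transport, at 14.3, 11.4 and 13.1 CPM across WT and 16.2, 17.9 and 22.6 CPM across KO (0.53 ± 0.22). Rabl3 was next by p, at 20.8, 23.4 and 15.8 CPM across WT and 22.7, 19.7 and 10.3 CPM across KO (-0.15 ± 0.28). Of 4 genes that add or remove phosphate on Rab proteins or regulate this, 3 lay below 0 and 0 had an unadjusted p under 0.05, with a median of -0.11. Lrrk2, the kinase that phosphorylates Rab8a, Rab10 and other Rabs and binds Rab29, was at 69.0, 36.0 and 65.6 CPM across WT and 43.0, 34.6 and 44.1 CPM across KO (-0.50 ± 0.23). Ppm1h, the phosphatase that reverses this mark, was at 28.1 ± 6.18 CPM for WT against 35.3 ± 8.96 CPM for KO (0.34 ± 0.23). Lrrk2 and Rab29 had opposite signs, and WT replicate 2 was nearly as low in Lrrk2 as KO replicate 2.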

How the data were processed

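The authors deposited raw counts, whole numbers of reads per Ensembl gene, for 6 libraries. Per the submitters' processing notes, HISAT2 2.0.5, HTSeq and mm10 were used. For HTSeq, the version, annotation, strand setting and handling of reads matching several genes were not given in the sources used here. Columns were matched to samples by the library label in each description, and GENCODE M21 (mm10 positions) named 32235 of 32285 features (99.8%).

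Of these, 12568 kept by filterByExpr entered edgeR 4.0.16 in R 4.3.3 (TMM scaling, glmQLFit with robust estimation and the newer quasi-likelihood method, glmQLFTest), comparing KO and WT only. P-values were adjusted over all of them by Benjamini-Hochberg. The SE is the log2 fold change divided by the square root of F, and the biological coefficient of variation was 30.1%. The scripts were tested on simulated data. Alternatives were DESeq2 1.42.0, limma 3.58.1 (voom, with and without quality weights), other scalings and filters, GC and length offsets, a replicate block and each library left out.

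Members and lists were chosen with earlier results of these data known, and 1 gene matching the family's name is not reported here. Rab genes given by library are those tied to the endosomal route or cross-presentation, the 10 with the smallest p, the 10 highest per kilobase, and close paralogs with a mean of at least 1 CPM. Of each regulator list the 2 with the smallest p are named. One listed Rab-like symbol matched no feature.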

Additional observations from a re-analysis of the deposited data

How the results depend on the processing

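No Rab gene was called at an adjusted p under 0.05 in any of the 17 alternatives run. Over all genes edgeR called 0, DESeq2 10, edgeR without a filter 3, and leaving out 1 library gave 0 to 7. The count of Rab genes at an unadjusted p under 0.05 was 4 of 46 (8.7%), beside 5.77% of all genes. It was 7 of 46 with DESeq2 (5.3% of all genes) and 8 of 46 with limma-voom and quality weights (9.63% of all genes). When 1 library was left out it was 0 to 11 of 46, from 2.9% of all genes without KO replicate 2 to 12.3% without KO replicate 1. Rab29 was among them in all alternatives but those without KO replicate 2 or KO replicate 3. With the replicate number as a block the count was 8 (7.5% of all genes), all genes called stayed at 0, and same-numbered libraries did not deviate together (correlations over genes of 0.0052, 0.0281 and -0.0013, with only replicate 2 correlating best with its own number), so the numbers were not treated as pairs. That count was 6 with offsets for GC content and length. The older quasi-likelihood method of edgeR, added after the data were seen, also gave 6. With all 6 libraries, those that were lower at that p were Rab30 with quality weights, Rab7b and Rab38 with DESeq2, the block and the older method, Rab7b without robust estimation, and Rab38 with the offsets or no filter. Vps33b lay between -1.42 and -1.11 on the log2 scale. Of the 33 named Rab genes tested, at most 5 changed sign in any 1 alternative, those without KO replicate 2 or 3. Without KO replicate 2 the log2 fold change was 0.20 for Rab11a and Rab22a. Depth limits the low genes. Of the 39 tested Rab genes with a mean of at least 5 CPM, 92.3% had an interval within 2-fold. The share was 85.9% for all genes at that level, and none of the other 7 Rab genes had such an interval.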
